A study of Mus musculus with 605 samples.

Results

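Bulge stem cells from the resting (telogen) hair follicles of wild-type mouse dorsal skin at postnatal day 56 (P56) were selected on their own Bmp2 transcripts, the measured value that chose the members of both sets. A cell was Bmp2-positive at 1 TPM or more and Bmp2-negative below that, where TPM is a transcript abundance that the quantification scales to a fixed sum per cell. The P56 plate held 92 of the 605 cells in the series. Of these, 83 passed the limits on TPM total, mitochondrial share and number of genes, and they fell into 52 Bmp2-positive and 31 Bmp2-negative cells. The split used Bmp2 itself, so its level is given as a description of the cells and carries no test.

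The study set wild-type skin (WT) against skin with melanocytic nevi that grows excess hair, from mice carrying the Tyr-Nras(Q61K) transgene, in which a tyrosinase promoter drives mutant Nras in melanocytes (Mut). The other bulge plates were WT at postnatal day 30 (P30), a growth phase of the hair cycle, and Mut at P56. A WT melanocyte plate and a WT myeloid plate, both at P56, gave a background for Bmp2. Per the study's methods, bulge cells were sorted for a keratin 14 promoter-driven nuclear green reporter, for CD34 and for low P-cadherin, so all of them carried that reporter. The labels name no animal, so each plate is 1 sample, and nothing here has a p-value: intervals and standard deviations (SD) describe cells of 1 plate.

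The bulge is the region of the follicle that holds its slow-cycling stem cells. Bone morphogenetic protein 2, the product of Bmp2, is a secreted ligand that acts through receptor kinases and SMAD proteins, and BMP signals are known to keep bulge stem cells at rest during telogen. Id1 and Id3 are standard transcriptional targets of that pathway, NFATc1 is a transcription factor linked to bulge quiescence downstream of BMP, and Col17a1 encodes the hemidesmosome collagen that anchors stem cells to the basement membrane. The division therefore asks which genes go with Bmp2 among cells of 1 sort, 1 plate and 1 stage.

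As a check of the label, the keratinocyte genes were found in nearly all cells: Krt15 in 82 of 83, Krt5 and Trp63 in 81, and Krt14 in 80. Col17a1 was detected in all 83 cells. Cd34, a sort marker, was detected as RNA in 8 of 83 cells (9.64%, exact Clopper-Pearson 95% interval 4.25 to 18.1%), and Sox9 and Lhx2, bulge transcription factors, in 36 and 23. By their highest marker list, 5 cells were not keratinocytes, 2 of them Bmp2-positive, and 7 cells carried several suprabasal genes, 4 of them Bmp2-positive. The depth of a cell is unknown, because TPM holds no read counts, and the number of genes above 0 stood in for it.

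Bmp2 (GRCm38 chr2:133552159-133562885, + strand in GENCODE M21) left a gap at the limit. In the negative cells, 30 were listed at 0 and the remaining cell stood at 0.89 TPM. In the positive cells the lowest value was 1.82 TPM, the median 62.6 and the highest 563.53. The next values above the lowest were 4.36, 4.64 and 4.65 TPM, then 10.88, and 48 cells had at least 10 TPM, 30 at least 50 and 19 at least 100. Few cells lay near the limit.

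Cells that need not make the ligand gave the background for a single detected value. Bmp2 was at 1 TPM or more in 1 of 81 kept WT melanocytes (1.23%, interval 0.0313 to 6.69%), at 12.6 TPM, and in 0 of 73 kept WT myeloid cells (upper limit 4.11%, taking 3 cells as the most that a count of 0 allows). The median melanocyte had 2233 genes above 0 and the median myeloid cell 2946, against 4271 in the P56 bulge cells. The P56 bulge share lay above the intervals of both.

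The 2 sets of bulge cells had similar numbers of genes detected. Bmp2-positive cells had 2205 to 6551 genes above 0 with a median of 4240, and Bmp2-negative cells 2649 to 6816 with a median of 4379. The means were 4384 ± 979 (SD, n = 52 cells) and 4500 ± 1021 (SD, n = 31 cells), a difference much smaller than the spread of cells. When cells were ranked by genes detected and cut into 3 parts, Bmp2 was found in 19 of the 28 lowest cells (67.9%, interval 47.6 to 84.1%), 16 of the 27 middle cells (59.3%, 38.8 to 77.6%) and 17 of the 28 highest (60.7%, 40.6 to 78.5%). Detection of Bmp2 did not climb with the number of genes. Over the 83 cells, Spearman's correlation of Bmp2 TPM with genes detected was -0.15, a description over cells of 1 plate. Each negative cell could be paired with a positive cell within 300 genes, which gave 31 pairs with a median gap of 49 genes and a largest gap of 265.

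**Figure D1:**
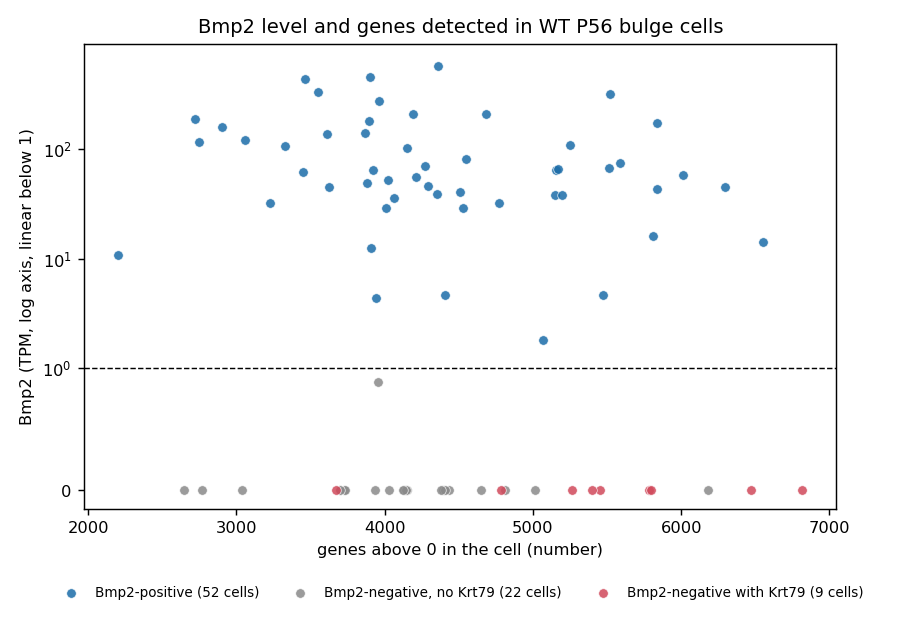
Bmp2 in TPM (log axis, linear below 1) against the number of genes above 0 for each of the 83 kept WT P56 bulge cells, with the limit of 1 TPM dashed. Blue points are the 52 Bmp2-positive cells, grey points 22 Bmp2-negative cells without Krt79 and red points 9 Bmp2-negative cells with Krt79; positive cells span the whole range of genes detected, and 8 of the 9 red points lie above the plate's median number of genes.

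Genes were compared by the mean of log2(TPM per 10000 + 1), that is, of TPM rescaled to a sum of 10000 in each cell. On this scale 1 unit is a doubling for abundant genes, and the change of genes under about 100 TPM is understated. A gene was counted when it differed by at least 0.5 in all kept cells and in the matched pairs with the same sign. Of 7455 genes with transcripts in 25% or more of either set's cells, 36 were higher with Bmp2 (0.483% of genes) and 13 were lower (0.174% of genes). Both counts are small, and for none of the 49 genes did the difference exceed 1 SD of the cells. The gene with the largest difference in units of the SD over cells was Myl12a, at 0.99, and the lowest was Tmsb15l, at -0.95. The median gene differed by 0.01, so the scale was not shifted between sets.

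The gene with the largest positive difference was Krt14. Krt14, the type I keratin of basal keratinocytes, ran from 0 to 40373 TPM with a median of 8123 in Bmp2-positive cells and from 0 to 22542 with a median of 4515 in Bmp2-negative cells. Its mean was higher by 0.999 (1.08 in matched pairs), with SDs of 1.705 and 2.001 on the log2 scale. Krt5, its type II partner, had medians of 5225 and 2926 TPM and was higher by 0.75 (0.89 matched). The sets overlapped through most of their range for both keratins. Krt15, the bulge keratin, had medians of 5599 and 4846 TPM and a difference of 0.23 (0.41 matched), which did not reach the limit. Krt17 differed by 0.34 (0.16 matched). Over the 5 measured keratins of the basal and follicle list, 2 were past the limit as higher (0.354% of the 10172 genes found in 10% or more of either set were) and 1, Krt79, as lower (0.147% of genes). Krt79 was at 0 in every positive cell and could only be lower.

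Thbs1 and Icam1 ranked between Krt14 and Krt5. Thbs1 encodes thrombospondin 1, a matrix glycoprotein that can activate latent TGF-beta. It reached 2809 TPM in Bmp2-positive cells with a median of 216, and 1506 in Bmp2-negative cells with a median of 59.6. It was detected in 49 of 52 positive cells (94.2%, interval 84.1 to 98.8%) and 22 of 31 negative cells (70.97%, interval 51.96 to 85.8%), and its mean was higher by 0.97 (1.07 matched). Icam1, a leukocyte adhesion molecule and NF-kappaB target, was detected in 46 of 52 and 21 of 31 cells, with medians of 402 and 103 TPM and a difference of 0.98 (0.82 matched). In 25 pairs within 100 genes of each other, a tighter match, Icam1 differed by 0.33, under the limit, whereas Thbs1 differed by 1.14, Krt14 by 1.19 and Krt5 by 0.94. In the NF-kappaB list 7 of 8 measured genes had a positive difference (53.4% of all genes were higher), and Icam1 alone of them was past the limit (0.354% of genes). The list median was 0.22 in all kept cells, 0.14 in the matched pairs and -0.04 in pairs within 100 genes, so its direction turned with the tighter match. Nfkbia, the feedback inhibitor of the pathway, differed by 0.39 and Tnfaip3, another, by 0.41. Of the 13 measured matrix genes Thbs1 alone was past the limit, and the list's median was 0.07 against 0.01 for all genes.

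Immediate early genes, which cells switch on within minutes of growth factor or stress signals, were the next group. Of the 22 listed, 21 had a higher mean with Bmp2 (against that 53.4% of all genes). The 7 past the limit (0.354% of the 10172 genes were) were Fos, Fosl1, Egr1, Atf3, Dusp1, Nr4a1 and Ppp1r15a. The list median was 0.44 (0.45 matched). Fos, a subunit of the AP-1 transcription factor, ran from 0 to 32901 TPM with a median of 7303 in positive cells and from 55.9 to 23074 with a median of 5423 in negative cells. Egr1, a zinc-finger transcription factor, had medians of 1660 and 909 TPM and differed by 0.79 (0.84 matched). Atf3, a stress-induced transcription factor, had medians of 4142 and 1942 TPM and differed by 0.77 (0.69 matched). The spread was wide in both sets: the mean of the 22 genes per cell was 2.57 ± 0.79 (SD, n = 52 cells) and 2.16 ± 0.92 (SD, n = 31 cells). Their summed level was 1049 to 72630 TPM in positive cells and 732 to 51925 in negative cells.

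The early genes moved with the position of the wells. In rows A to D of the plate all 22 were higher with Bmp2 and the median was 0.70, whereas in rows E to H 13 of 22 were higher and the median was 0.04. The medians of all genes in these parts were -0.0047 and 0.015. Row A held 2 positive and 7 negative cells and had the lowest median of the early gene mean of any row, 1.85, against 2.34 to 3.01 in the others. Without row A the list median was 0.23. The part of well position in these differences was not tested. When positive and negative cells were instead paired on the early gene mean (28 pairs), Krt14 stayed higher by 1.15, Icam1 by 0.95, Thbs1 by 0.90, Krt5 by 0.77 and Gpha2 by 0.76. Sfn stood at 0.15 and Serpinb2 at 0.21. Egr1 at 0.46, Dusp1 at 0.13 and Atf3 at -0.09 are themselves members of the mean used for pairing, which draws them towards 0, so nothing is read from their values. Krt14, Thbs1 and Icam1 differed by 0.74, 0.77 and 0.77 in rows A to D and by 1.42, 1.11 and 1.15 in rows E to H. These genes were picked as high over the same cells, so their sign in the parts is no check. Krt5 differed by 0.42 in rows A to D, under the limit, and by 1.18 in rows E to H.

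The other genes at the top were Calm5, Wsb1, Urah, Serpinb2, Sfn and Gpha2, with differences of 0.67 to 0.75. Sfn, the 14-3-3 sigma protein of stratified epithelia, had medians of 1600 and 805 TPM. Serpinb2, a plasminogen activator inhibitor induced by stress, was found in 42 of 52 and 16 of 31 cells, with medians of 114 and 3.29 TPM. Calm5, a calmodulin-like gene of the epidermis, was found in 26 of 52 and 10 of 31 cells. Gpha2, a glycoprotein hormone subunit, was found in 29 of 52 and 13 of 31 cells, so for these genes the difference lay partly in how many cells had any transcript. All 15 of the highest genes had a positive difference in both parts of the plate, but they were picked on the cells of both parts together. Agreement of sign, there or in pairs within 100 genes, is largely set by that choice and is no check. In pairs within 100 genes all 15 were again higher, but 9 of them by 0.5 or more, and Icam1, Wsb1, Atf3, Serpinb2, Sfn and Urah, at 0.29 to 0.49, were under the limit.

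**Figure D2:**
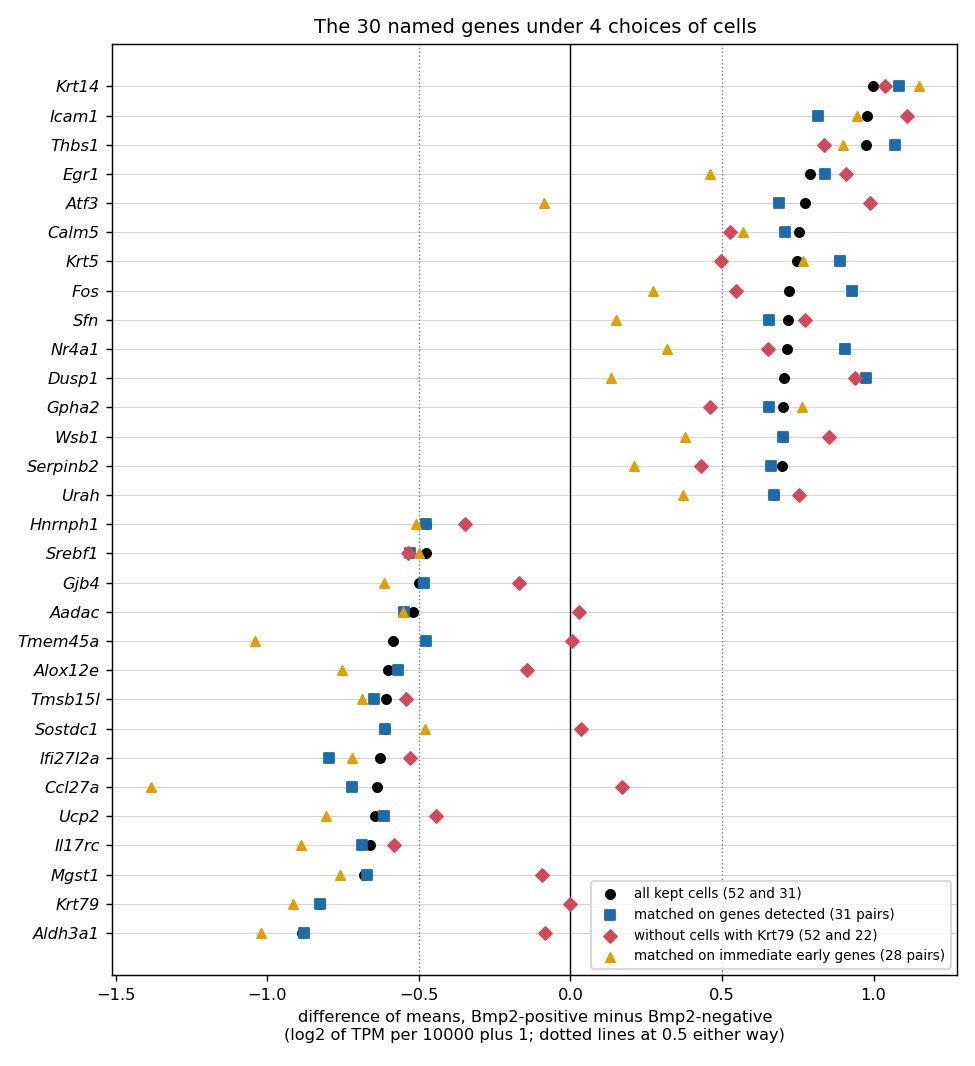
Difference of means (Bmp2-positive minus Bmp2-negative, log2 of TPM per 10000 plus 1) for the 15 highest and 15 lowest genes. Black circles use all kept cells, blue squares 31 pairs matched on genes detected, red diamonds the cells without Krt79 and yellow triangles 28 pairs matched on immediate early genes; the yellow triangles of Sfn, and of Atf3 and Dusp1, which entered that matching, lie near 0, and so do the red diamonds of Krt79, Aldh3a1, Mgst1, Sostdc1, Aadac and Tmem45a.

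Among the genes lower with Bmp2, Krt79 was the named gene detected in none of the positive cells, and it passed the filter on low values through the negative cells alone. Krt79, a keratin of the upper follicle and the duct of the sebaceous gland, was detected in 9 of 31 Bmp2-negative cells (29.03%, interval 14.2 to 48.04%), at 59.8 to 4124 TPM. It was listed at 0 in 52 of 52 Bmp2-positive cells, where a count of 0 allows a share of cells with 1 TPM or more of up to 5.77%, taking 3 cells as the limit, for counting error only. Aldh3a1, an aldehyde dehydrogenase, differed by -0.89 (-0.88 matched), Krt79 by -0.83 (-0.83) and Mgst1, a microsomal glutathione transferase, by -0.68 (-0.67). Sostdc1, a secreted BMP and WNT antagonist, differed by -0.61 (-0.61), with medians of 0 and 44.98 TPM. In the isthmus and infundibulum list, markers of the upper follicle, 3 of 8 genes were past the limit as lower (0.147% of genes were), Krt79, Defb6 and Sostdc1. Defb6 and Gata6 of this list, like Krt79, were at 0 in every positive cell and passed the filter through the negative cells alone. They could only be lower, so the count is no evidence of a shift of the list. The list's median was -0.11 in all kept cells but 0.13 without the cells with Krt79. Sebaceous gland markers had 4 of 5 measured genes lower (46.6% of all genes were) and a median of -0.18, or -0.04 without those cells. Mgst1 alone of them was past the limit (0.147% of genes were). Cidea of this list was at 0 in every positive cell and could also only be lower. Their summed level exceeded 1000 TPM in 2 negative cells, up to 5071, and in 0 positive cells, where it reached 571.

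The 9 cells with Krt79 shared a set of transcripts, and they were set apart after these values were seen. Defb6, a beta-defensin, was detected in 6 of the 9 and in none of the other 74 kept cells. Gata6, a transcription factor of the upper follicle, was detected in 4 of the 9 and in none of the others. Further upper follicle markers were mixed. Lgr6 was found in 4 of the 9, 11 of the 22 other negative and 27 of the 52 positive cells, and Cst6 in 3, 7 and 16. Plet1 was found in 8, 6 and 25 of these cells and Lrig1 in 7, 5 and 22. Aldh3a1 was found in all 9, at 138 to 1797 TPM, against 6 of the 22 other negative cells and 13 of the 52 positive cells. Apoe, a lipid carrier, ran from 5660 to 58851 TPM with a median of 46927 in the 9 cells, from 843 to 16576 with a median of 9196 in the other negative cells and from 1727 to 24067 with a median of 8356 in the positive cells. Aadac, an esterase, was found in 8 of the 9, in none of the other negative cells and in 1 positive cell. These cells also had Nfatc1 in all 9, with a median of 72.6 TPM, and Krt15 in 8 of 9.

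The cells with Krt79 also had more genes detected, a median of 5450 (3674 to 6816), against 4128 in the other negative cells and 4240 in the positive cells, and they came from 7 of the 8 rows of the plate. Col17a1 was low in them, at 79.5 to 449 TPM with a median of 323. Without the 9 cells several of the lowest genes stood near 0: Aldh3a1 differed by -0.08, Mgst1 by -0.09, Sostdc1 by 0.04, Aadac by 0.03 and Ccl27a by 0.17. Il17rc at -0.58, Tmsb15l at -0.54, Srebf1 at -0.54, Ifi27l2a at -0.53 and Ucp2 at -0.44 kept most of their size. Il17rc, a subunit of the interleukin-17 receptor, was detected in 27 of 52 positive and 25 of 31 negative cells, and Tmsb15l, a thymosin, in 4 of 52 and 14 of 31. At the other end, Krt14 differed by 1.04, Icam1 by 1.11 and the early gene list by 0.52 without the 9 cells, and Krt5 by 0.50.

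**Figure D3:**
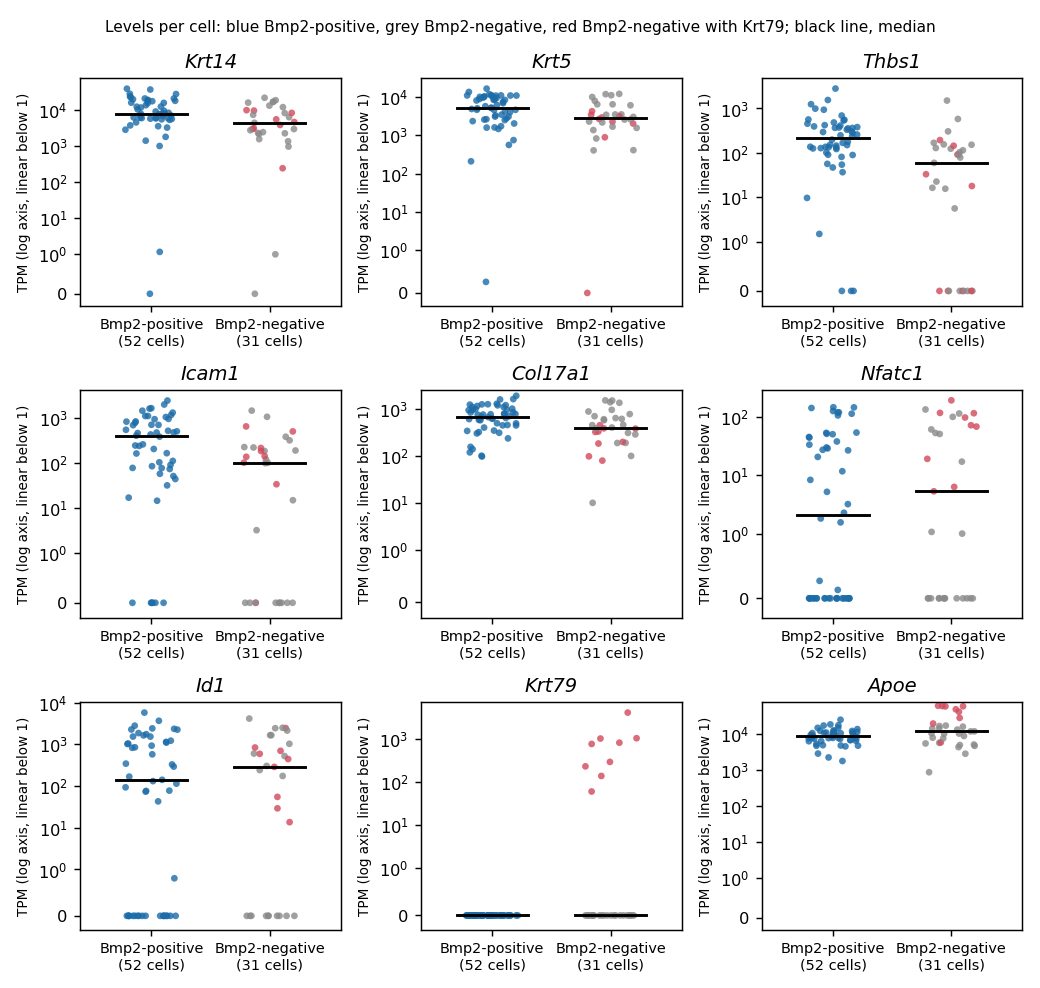
TPM per cell (log axis, linear below 1) of 9 genes in the 52 Bmp2-positive and 31 Bmp2-negative cells, with the median as a black line; red points are the Bmp2-negative cells with Krt79. The sets overlap for Krt14, Krt5, Thbs1, Icam1, Col17a1, Nfatc1 and Id1, whereas Krt79 is above 0 in red points only and most red points of Apoe lie above all blue ones.

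For 4 of these genes, the 250 bases before the RefSeq start (GRCm38.p6) are shown because they stand for the groups above. Krt5 stands for the basal keratins, Icam1 for the NF-kappaB list, Fos for the immediate early list and Krt79 for the genes listed at 0 with Bmp2. Capitals mark matches on either strand to TATAAA (the TATA box, in 12.4% of 32851 windows of this length), TGANTCA (the AP-1 site, 6.75%), TGACGTCA (the cAMP response element, 1.55%) and GGGCGG (the GC box, 32.7%).
Krt5 (chr15:101712906-101713155, strand -): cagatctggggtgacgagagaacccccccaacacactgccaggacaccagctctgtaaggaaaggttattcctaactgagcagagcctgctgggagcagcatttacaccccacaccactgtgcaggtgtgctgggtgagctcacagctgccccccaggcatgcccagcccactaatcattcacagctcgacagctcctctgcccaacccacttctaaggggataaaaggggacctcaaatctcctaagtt
Icam1 (chr9:21015690-21015939, strand +): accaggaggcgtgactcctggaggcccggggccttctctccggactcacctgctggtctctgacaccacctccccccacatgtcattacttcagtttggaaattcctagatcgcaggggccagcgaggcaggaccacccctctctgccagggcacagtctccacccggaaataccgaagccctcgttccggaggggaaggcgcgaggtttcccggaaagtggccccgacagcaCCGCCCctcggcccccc
Fos (chr12:85473640-85473889, strand +): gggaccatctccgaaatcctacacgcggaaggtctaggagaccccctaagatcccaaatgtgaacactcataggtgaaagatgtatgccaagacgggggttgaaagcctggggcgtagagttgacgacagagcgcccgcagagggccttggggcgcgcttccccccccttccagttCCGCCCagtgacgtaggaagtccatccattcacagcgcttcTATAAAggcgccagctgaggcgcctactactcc
Krt79 (chr15:101940325-101940574, strand -): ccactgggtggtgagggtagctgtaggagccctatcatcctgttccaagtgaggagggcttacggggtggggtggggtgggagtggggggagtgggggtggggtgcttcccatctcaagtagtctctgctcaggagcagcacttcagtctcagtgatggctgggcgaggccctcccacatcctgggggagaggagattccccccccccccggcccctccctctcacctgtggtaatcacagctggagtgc
The Fos window held a TATA box 33 to 28 bases before the start and a GC box 74 to 69 bases before it, and the Icam1 window a GC box 17 to 12 bases before it. None of the 4 words matched in the Krt5 and Krt79 windows, which says only that these letters are not there.

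The genes that the study ties to telogen quiescence did not go with Bmp2 as a group on this scale, which understates genes under about 100 TPM. Of 7 measured members of the study's list other than Bmp2, 3 were higher and 4 lower (53.4% and 46.6% of all genes were), with a median difference of -0.01. The median was -0.30 on log2(TPM + 1) of the deposited values. It was 0.21 with a filter of 50% of cells and 0.21 in pairs matched on the early genes, so its direction belongs to the setting. The listed genes were picked by the study on bulge cells of the same mouse lines, so the list is not independent evidence of a direction. Nfatc1 was detected in 28 of 52 positive cells (53.8%, interval 39.5 to 67.8%) and 18 of 31 negative cells (58.1%, interval 39.1 to 75.5%), with medians of 2.05 and 5.33 TPM and a difference of -0.09 (-0.16 matched, 0.07 without the cells with Krt79). Tgm5, a transglutaminase, was found in 22 of 52 and 9 of 31 cells and differed by 0.28. Axin2, a WNT target, and Foxc1, a bulge transcription factor, differed by -0.04 and -0.01. Col17a1 was the member that passed the limit.

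Col17a1 ran from 97.1 to 1905 TPM with a median of 690 in Bmp2-positive cells and from 10.03 to 1520 with a median of 402 in Bmp2-negative cells. The difference was 0.51 (0.57 matched), with SDs of 0.82 and 0.99. It was 0.16 in rows A to D and 0.87 in rows E to H, 0.27 without the cells with Krt79 and 0.25 in pairs matched on the early genes. Col17a1 thus stayed positive in each of these but fell below the limit in 3 of them. Its hemidesmosome partners differed by less: Itgb4 by 0.31, Itga6 by 0.27 and Plec by 0.18. Over the 12 measured adhesion genes 6 were higher and 6 lower (53.4% and 46.6% of all genes were), with a median of 0.00.

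Genes of the BMP pathway itself showed no common shift on this scale, which understates genes under about 100 TPM. Among the targets, Id1 was detected in 33 of 52 positive and 21 of 31 negative cells, with medians of 136 and 288 TPM, and differed by -0.03 (0.11 matched). That value hid opposite differences in the parts of the plate, 0.93 in rows A to D and -0.96 in rows E to H. Id3 was past the limit, at 0.55 (0.65 matched), with medians of 743 and 578 TPM, and stood at 0.29 in pairs matched on the early genes. Of the 10 measured targets 6 were higher, near the 53.4% of all genes that were, and the median was 0.00. Id3 alone of them was past the limit as higher (0.354% of genes were). Among ligands, Bmp4 was found in 18 of 52 and 7 of 31 cells and Bmp7 in 25 of 52 and 17 of 31, with differences of 0.19 and -0.06. Among receptors and SMADs, Bmpr2 was found in 36 of 52 and 12 of 31 cells at a difference of 0.07, Acvr2a differed by 0.23 and Smad5 by 0.13, none past the limit. Of the antagonists, Sostdc1 alone passed the limit. On log2(TPM + 1) of the deposited values, which weights low genes more, the BMP lists lay apart. Their medians were 0.39 for receptors and SMADs, 0.07 for targets, -0.17 for antagonists and -0.35 for ligands, against -0.01 for all genes. The 10 measured NFAT and calcineurin genes had a median of -0.02.

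Most other lists lay close to the median of all genes on the scale used. Of 34 lists with at least 4 measured members, 29 had a median within 0.15 of 0. Bulge stem cell regulators, such as Sox9, Lhx2, Tcf7l2 and Lgr5, had a median of 0.05 over 14 genes with none past the limit, S phase genes -0.04 over 13 and mitosis genes -0.01 over 5. Glycolysis genes stood at 0.14 over 14 and circadian genes at 0.09, with 12 of 14 higher (53.4% of all genes were). Cytosolic ribosomal protein genes had 16 of 20 lower, where 46.6% of all genes were lower, and a median of -0.11. On log2(TPM + 1) of the deposited values several list medians lay further from 0. NF-kappaB genes stood at 0.64, FGF and MAPK feedback genes and circadian genes at 0.58, fibroblast markers at -0.54 and sebaceous markers at -0.80. S phase genes, at -0.11, and bulge stem cell regulators, at 0.01, stayed within 0.15 of 0.

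Immune markers had the lowest list median, -0.25, with 4 of 4 measured genes lower (46.6% of all genes were). It came from few cells: the summed level of the 8 markers exceeded 1000 TPM in 3 negative and 1 positive cells, reached 15205 TPM in the first and 6333 in the second, and had a median of 0 in both sets. Melanocyte markers exceeded 1000 TPM in 3 positive cells and 1 negative cell, up to 15075 and 10714 TPM. Fibroblast markers reached 931 and 707 TPM, and Pdgfra was listed at 0 in every cell. The part of these transcripts in the differences was not tested. The cells whose highest marker list was not that of keratinocytes and the cells with several suprabasal genes were then left out together (46 and 25 cells left). The early gene median was 0.25, against 0.44 in all kept cells, and the keratin median 0.08, against 0.34. The keratin median is that of a short list: Krt14 still differed by 0.90 and Krt5 by 0.68 in these cells.

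**Figure D4:**
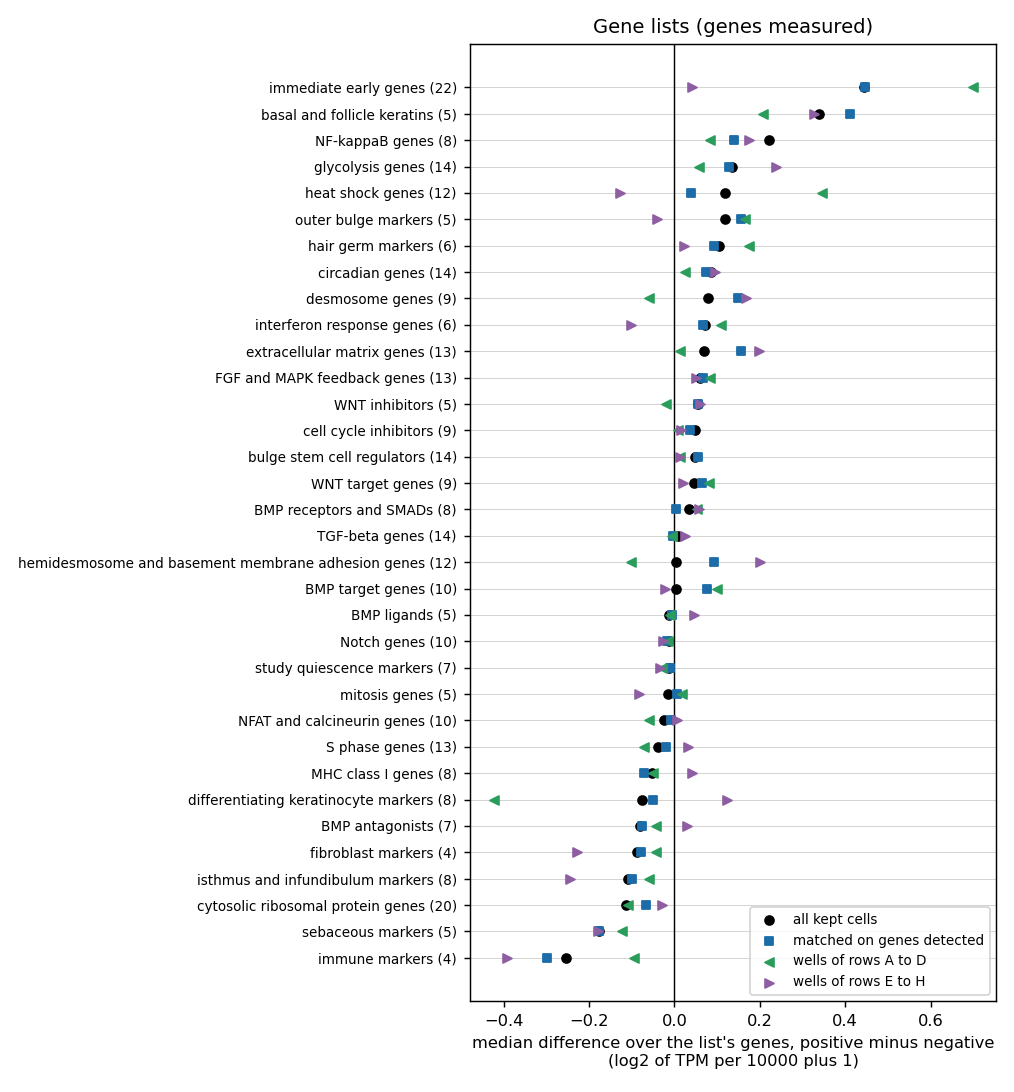
Median difference over the measured genes of each list (Bmp2-positive minus Bmp2-negative, log2 of TPM per 10000 plus 1; genes measured in brackets). Black circles are all kept cells, blue squares the matched pairs, green and purple triangles rows A to D and E to H of the plate; the immediate early genes stand at 0.44 overall but at 0.70 and 0.04 in those rows, and most lists lie within 0.15 of 0.

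Among the Bmp2-positive cells, the level of Bmp2 tracked few of these genes. Over the 52 cells, Spearman's correlation with Bmp2 TPM lay between -0.18 and 0.24 for the 15 highest genes and between -0.28 and 0.16 for 14 of the 15 lowest, Krt79 having no value. Values this weak are no finding. With positive cells limited to at least 50 TPM (30 cells) against the same 31 negative cells, Thbs1 differed by 1.15, Krt14 by 0.77 and Icam1 by 0.76.

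The same split was made on the other bulge plates, where Bmp2 was rare. In WT P30, 10 of 84 kept cells were positive, at 1.16 to 211 TPM, with medians of 3248 and 3157 genes detected in positive and negative cells. Of the 15 genes highest at P56, 11 were also higher at P30, and of the 15 lowest, 7 were lower. Among the 4987 genes found in 25% or more of either set's cells on both plates, 54.7% were higher and 45.3% lower. The named genes were not held to that filter at P30, so the shares are not like for like. Krt79, Aadac and Mgst1 were found in 0 of the 10 positive cells and could only be lower. With 15 genes each and 10 positive cells, these shares are a description only. The early gene list had 20 of 21 genes higher (4864 of all 9434 genes were) with a median of 0.62 (0.53 over 10 pairs). Fos had medians of 4136 and 1216 TPM. Col17a1 was higher by 0.80 (0.44 matched), with medians of 193 and 116 TPM. Krt14 went the other way, at -1.15 (-1.64 matched), though its medians were 8066 and 8396 TPM, and Thbs1 differed by -0.15 (0.10 matched). Krt79 was found in 0 of 10 positive and 4 of 74 negative cells, and Nfatc1 in 4 of 10 and 9 of 74.

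In Mut P56, 4 of 89 kept cells were positive, at 7.98 to 42.6 TPM, too few to match on genes detected. The early gene median was 1.78 in these 4 cells against the other 85, Col17a1 differed by 0.74, Krt14 by 0.86 and Thbs1 by -0.54. Krt79 was found in 1 of the 4 positive cells and 2 of the 85 others. The plates were not tested against each other, and plate, stage and genotype cannot be told apart from 1 plate each.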

How the data were processed

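Single bulge cells of 1 WT P56 plate were analysed, with WT P30 and Mut P56 bulge plates and WT melanocyte and myeloid plates for comparison. The authors deposited TPM per gene and cell. Per the study's methods and the submitters' processing notes, single cells were caught in microfluidic chambers, full-length cDNA was sequenced, reads were aligned with STAR 2.4.2 to GRCm38 (mm10) and genes were quantified with RSEM. The methods name FPKM for quantified values and TPM in the cell limits, and the tables name TPM. TPM is scaled to a fixed total, so it keeps no read depth, and intervals cover counting error only. Chambers seen to hold several cells or none were left out by the authors, and no doublet caller was run.

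Identifiers of the same symbol were averaged, leaving 30957 symbols. The limits on bulge cells were a summed TPM no lower than 750000, a mitochondrial share no higher than 20% and 2000 to 7000 genes above 0. For the other cell types the gene limit was 1000 or more. Detection means 1 TPM or more. A column that matched no label (1 in all) was not used. Values were log2(TPM / total × 10000 + 1). Cells were matched in optimal pairs within 300 genes. Named genes were the 15 highest and 15 lowest by the smaller of the overall and matched differences, leaving out Bmp2, pseudogenes, predicted, sex-linked, ribosomal protein and mitochondrial genes, plus Nfatc1, Col17a1, Id1 and members of 37 gene lists by size. Lists were described from members detected in at least 10% of either set. The members and lists were chosen with earlier results of these data known. No test was made, since each plate is 1 sample. Alternatives changed the scale, filter, matching, Bmp2 limit, wells and cells. Steps were checked on simulated data. Python 3.11.15, NumPy 2.4.6, SciPy 1.17.1, pandas 2.3.3 and matplotlib 3.10.9 were used.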

Additional observations from a re-analysis of the deposited data

How the results depend on the processing

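No paired analysis of samples was possible because each plate is 1 sample; cells were paired on measured values only. On log2(TPM + 1) of the deposited values, which weights low genes more, 1298 genes were higher and 1243 lower by 0.5 or more, and the list medians were 0.74 for immediate early genes, -0.30 for the study's quiescence genes, -0.43 for isthmus and infundibulum markers and 0.86 for keratins. The counts and the list medians therefore belong to the scale used. With a filter of 50% of cells, 6 genes were lower. In rows A to D, 80 genes were higher and 39 lower with an early gene median of 0.70, and in rows E to H, 120 were higher and 32 lower with 0.0404, where Tmem45a stood at 0.0267; these settings hold fewer cells. Matched on early genes, 20 genes were higher and the keratin median was 0.77. The early gene median, 0.0180, and Atf3, -0.0881, are drawn towards 0 by that matching itself, so nothing is read from them. The keratin median was 0.0273 with no filter, which adds keratins at or near 0. It was 0.0793 without cells of other kinds, where Krt14 still differed by 0.90. Alternatives added after seeing the data left out the cells with Krt79, where Ccl27a (0.17), Sostdc1 (0.0357), Aadac (0.0289) and Tmem45a (0.0046) turned positive, and row A, where 22 genes were lower. Where no value shows it, the cause was not tested. Of 528 values of named genes under 16 alternatives, 14 changed sign. They were 6 of Id1 and 2 of Nfatc1, both near 0, and 6 over 5 genes with differences of at least 0.5. Atf3 is among these 5 genes, through the pairs matched on early genes. In all, 509 moved by less than 1 SD over cells. The difference in median genes detected, -139.0, was -74.5 with genes counted at 1 TPM. With 1 plate and unknown read depth, a gene listed at 0 in a cell may have been missed.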
